A study of Saccharomyces cerevisiae with 2 samples.

Results

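The RAM network is a kinase pathway of budding yeast that controls polarised growth and the separation of daughter cells. Of 7 genes of the network, chosen by name around TAO3, 6 had features on the arrays and are described here: TAO3, CBK1, MOB2, HYM1, SOG2 and SSD1. They are 6 of 5325 named deletion strains. KIC1 was not analysed here. The list was drawn up with the low value of the TAO3 strain already known. All values of its members in this comparison are therefore given as a description, with no test.

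The output kinase of the network, Cbk1, belongs to the NDR family and acts bound to its partner Mob2. The kinase Kic1, together with Hym1 and the leucine-rich repeat protein Sog2, acts upstream, and Tao3 is a large scaffold protein of the Furry family that links the parts. Cbk1 restrains Ssd1, an RNA-binding protein that holds back the translation of cell wall mRNAs. In yeast with a functional SSD1 gene the other RAM genes are needed for growth, and loss of SSD1 restores growth without them. SSD1 itself is not essential.

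Haploid yeast deletion strains were grown as a pool that overexpressed LCD1 and as a pool with a control plasmid. The protein made from LCD1 (DDC2) binds the DNA damage checkpoint kinase Mec1. In the LCD1 pool the gene stood under the galactose-inducible GAL1 promoter on a URA3 plasmid. The control plasmid was also selected by URA3. Both pools came from 5896 heterozygous diploid knockout strains, each without 1 copy of 1 gene, that were sporulated and selected as haploids for 3 days at 30 °C on 2% galactose. Each strain carries a pair of DNA tags, and the ratio of tag signals gives its relative abundance. The pools were compared on 2 two-colour arrays, called array 1 and array 2, with the LCD1 pool in Cy3 and the control pool in Cy5 on both. Dye and pool could not be told apart, and separate cultures for each array are not mentioned in the labels. The number of arrays limits the precision, and no intensities are in the value table, so signal over background is unknown.

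Values below are log2 ratios, LCD1 pool over control pool, with each tag block of each array centred on its median. This is the sign opposite to the deposited one. The source of that sign is the strain without LCD1, an essential gene whose deletion needs the LCD1 plasmid to grow. Its first tag read 4.24 and 4.97 on arrays 1 and 2 and its second tag 1.01 and 0.30, all on the higher side. The direction is therefore likely, not stated, and under the other reading every value here changes sign. Strains without essential genes were part of the same pools. A strain that grows in neither pool leaves only residual tag signal, so its ratio is no measure of growth.

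The TAO3 deletion strain had the lowest ratio of the network. Its first tag gave -2.39 on array 1 against -4.26 on array 2, and its second -0.77 against -3.43. All 4 tag values lay below 0, and both tags were lower on array 2. Averaged over its tags the strain stood at -1.58 on array 1 and -3.84 on array 2, a mean of -2.71 ± 1.60 (SD, n = 2), which is 6.55-fold lower in the LCD1 pool. That was the 8th lowest mean of 5325 strains.

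The arrays placed the TAO3 strain differently. On array 2 it was the lowest of all strains, and on array 1 it ranked 71 from the bottom. The gap between its arrays, 2.27, was reached or exceeded by 22 strains including itself, against a median gap of 0.219 over all strains. The second tag carried most of this gap, where array 2 minus array 1 was -2.66, while this difference was -1.87 for the first tag. The first tag ranked 102 and 19 from the bottom among first tags on arrays 1 and 2. Its deposited ratios, control over LCD1 pool in the likely direction, were 4.94 and 18.01 for the first tag and 1.51 and 9.69 for the second, where rounding to hundredths is fine.

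TAO3 was the 1 member at least 2-fold lower on both arrays, a rule that 1.82% of all strains met on that side. It was 2-fold lower on 3 of its 4 tag values and so missed the rule that asks for both tags on both arrays, which 0.377% of strains met on the lower side. The value just outside was the second tag on array 1, at -0.77. With array 2 alone the strain stood at -3.84 and with array 1 alone at -1.58, both past 2-fold. With the second tag alone it was not past 2-fold on both arrays.

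**Figure D1:**
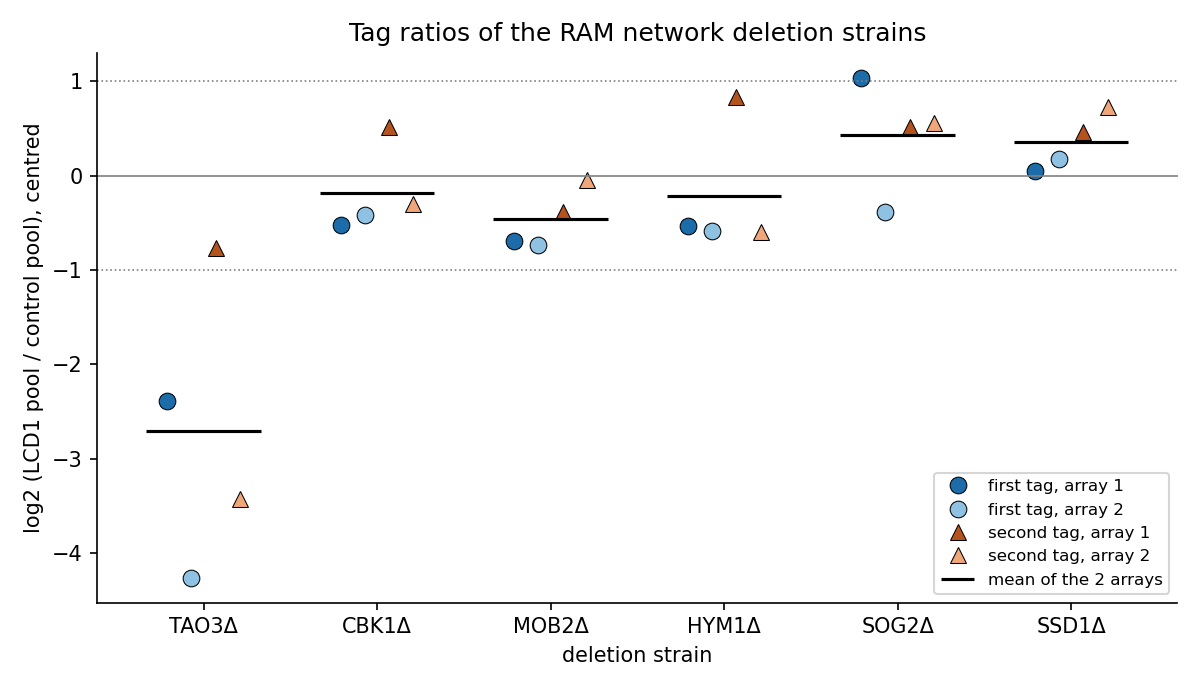
Centred log2 ratio of LCD1 pool over control pool for each tag (circles first, triangles second) on each array, for the 6 RAM network deletion strains; bars are means of the 2 arrays and dotted lines mark 2-fold. TAO3 lies between -0.77 and -4.26, while the tags of the other strains lie between -0.74 and 1.03.

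The strain without the output kinase gene CBK1 stayed near 0. Its first tag read -0.52 and -0.42 on arrays 1 and 2, and its second tag 0.52 and -0.30. The first tag repeated between arrays, whereas the second changed sign. The mean was -0.18 ± 0.26 (SD, n = 2), and 27.2% of all strains had a lower one. This mean is smaller than its SD.

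For MOB2, whose protein binds and activates Cbk1, all tag values lay below 0, as they did for TAO3 and in 16.4% of all strains. The first tag read -0.70 and -0.74 on arrays 1 and 2, and the second -0.38 and -0.05. Its mean of -0.47 ± 0.10 (SD, n = 2) was the lowest of the network after TAO3, and 9.99% of all strains had a lower one. The arrays gave -0.54 and -0.39, a difference smaller than the gap between its tags on either array.

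MOB2 had 2 features per tag, and these lay apart on some of the arrays and tags. On the first tag 1 feature read -0.53 and -0.21 on arrays 1 and 2 and the other -0.86 and -1.26. On the second tag the features read -1.22 and -0.11, and 0.45 and 0.02. The widest gap was 1.66, on the second tag of array 1, where it ranked 8 from the largest among 90 genes with 2 features, whose median gap was 0.405. On the first tag of array 2 the gap of 1.05 was also above the median of such genes, 0.324. On the first tag of array 1 and the second tag of array 2 the gaps, 0.330 and 0.124, were below the medians of 0.561 and 0.362. No source used here says whether such features are spots of the same strain or separate strains. Features were averaged before the SD over the arrays was taken, so the SD of the MOB2 mean leaves this spread out. The same holds for every gene with more than 1 feature per tag.

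Hym1 works beside Kic1 upstream of Cbk1. On arrays 1 and 2 the first tag of its deletion strain read -0.53 and -0.58 and the second 0.83 and -0.60. The first tag thus repeated closely, while the second stood on opposite sides of 0. The arrays gave 0.15 and -0.59, and the mean was -0.22 ± 0.52 (SD, n = 2), which is smaller than the spread between the arrays.

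Sog2 binds Kic1. Its strain was the 1 of the group with a higher mean among the genes needed for growth. On arrays 1 and 2 its first tag gave 1.03 and -0.39, and its second 0.52 and 0.56. Here the second tag repeated and the first changed sign. The mean was 0.43 ± 0.49 (SD, n = 2), below the spread between its arrays, and 84.9% of all strains had a lower one.

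The strain without SSD1, the gene whose loss makes the RAM pathway dispensable, stood slightly on the higher side. The first tag read 0.05 and 0.17 on arrays 1 and 2 and the second 0.46 and 0.73, all above 0. Its mean was 0.35 ± 0.14 (SD, n = 2), or 1.28-fold higher in the LCD1 pool, with 79.5% of all strains lower. The second tag lay above the first by 0.41 and 0.56 on arrays 1 and 2, more than the arrays differed on either tag. All 4 tag values lay above 0 in 16.8% of all strains.

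SSD1 was also the best measured member, with 6 features for each tag. On arrays 1 and 2 their SD was 0.058 and 0.19 within the first tag, and 0.10 and 0.11 within the second. Among genes with 6 or more features the median SD was 0.075 and 0.18 for the first tag and 0.088 and 0.12 for the second, so the features of SSD1 repeated about as well as those of other genes. TAO3, CBK1, HYM1 and SOG2 had 1 feature per tag, so no such spread can be given for them.

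**Figure D2:**
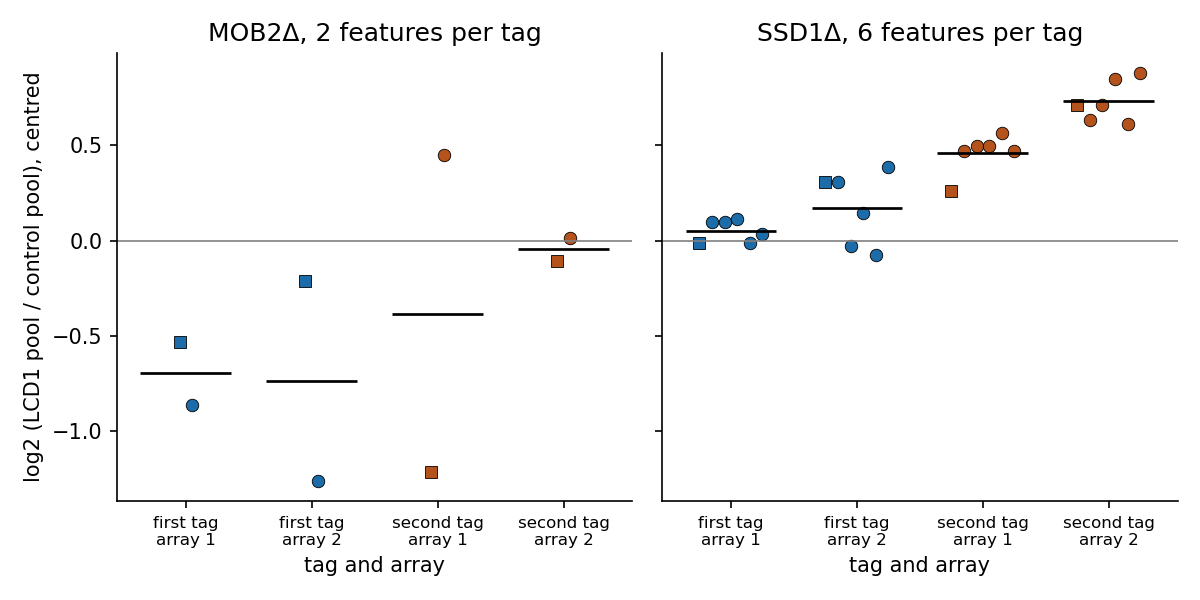
Centred log2 ratio of each feature of the MOB2 and SSD1 deletion strains by tag and array; squares mark the first listed feature, circles the others, and bars the mean. The 6 SSD1 features of a tag cluster, whereas the 2 MOB2 features lie as much as 1.66 apart.

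The 5 members needed for growth did not form a group with 1 direction. Of these, 3 lay below 0 on both arrays, SOG2 lay above 0 on both and HYM1 had opposite signs, against 34% below and 37.7% above on both arrays and 28.2% with opposite signs over all strains. The count of 3 includes CBK1, which stood at -0.0012 on array 1 and -0.36 on array 2. Without centring CBK1 was at 0.13 on array 1, which leaves TAO3 and MOB2 below 0 on both arrays. The arrays of the 4 other than TAO3 stayed between -0.59 and 0.78. Their distances from each other over the 4 tag values were far below those from TAO3. The Euclidean distance was 0.457 between CBK1 and HYM1, the closest pair, and 1.003 between CBK1 and MOB2, which encode the bound pair. From TAO3 to the other members it was 5.18 to 6.67.

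The first tag of these 5 strains lay below 0 more often than the second. For the first tag 9 of 10 values lay below 0, and for the second 6 of 10. These are 5 strains read on 2 arrays, and without TAO3 the counts were 7 and 4 of 8. Over all strains 2661 of 5322 first-tag values lay below 0 on array 1 and 2593 of 5325 on array 2. For the second tag these were 2656 of 5312 and 2612 of 5325. A list of essential genes, of which 266 had features, showed the same order of its tag medians. The 5 strains had first-tag medians of -0.53 on array 1 and -0.58 on array 2, and second-tag medians of 0.52 and -0.30. In the essential list the first-tag medians were -0.41 and -0.63 and the second-tag medians 0.32 and 0.08. There 183 and 204 of 266 first-tag values lay below 0 on arrays 1 and 2. For the second tag these were 89 of 264 and 113 of 266. Both sets of medians also stood lower on array 2 than on array 1 for each tag.

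Set beside the essential list, the TAO3 strain fell near its low end. Of the 266 strains, 2 had a lower mean. On the first tag 29 were lower on array 1 and 5 on array 2, and on the second tag 27 on array 1 and 0 on array 2. The list held 21 strains at least 2-fold lower on both arrays (7.89%) and 0 at least 2-fold higher. The other RAM strains, which like TAO3 are not on the list, fell within its range: 80 of its strains had a lower mean than MOB2, 122 than HYM1, 130 than CBK1 and 225 than SOG2. Opposite signs on the arrays, as for HYM1, were found in 38.3% of the list and in 28.2% of all strains. The median gap between the arrays was 0.495 in the essential list and 0.210 in the strains outside it. The list is partial, so those strains include further essential genes, TAO3 and LCD1 among them. TAO3 (2.27), HYM1 (0.74) and SOG2 (0.69) had gaps above the first of these medians, while CBK1 (0.36), MOB2 (0.15) and the nonessential SSD1 (0.20) lay below it. Whether residual signal plays a part in the values of TAO3 was not tested.

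**Figure D3:**
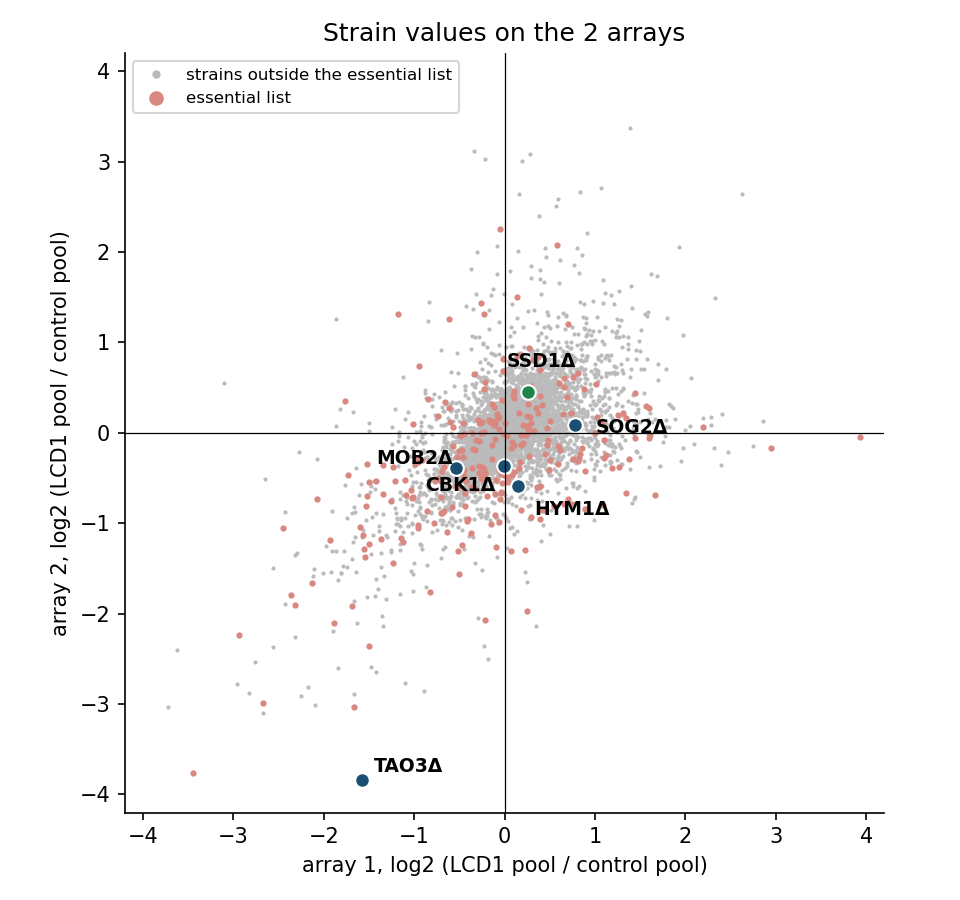
Strain value (mean of both tags, log2 ratio of LCD1 pool to control pool) on array 2 against array 1 for 5325 strains, with the essential list in red and the RAM network strains labelled. TAO3 has the lowest value on array 2, at -3.84, and the other 5 strains lie between -0.59 and 0.78 on both arrays.

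The strains whose 4 tag values were nearest to those of TAO3 were sought among 5303 strains outside the network with all 4 values. By Euclidean distance they were those without RPL17B (1.94), which encodes a large-subunit ribosomal protein, SCD5 (2.17), a protein of endocytosis and actin, RRP12 (2.37), a ribosome biogenesis factor, RPG1 (2.40), a subunit of translation initiation factor 3, and AAT2 (2.55), an aspartate aminotransferase. None was as close as the strains nearest to SSD1, given next, but few strains have means as low as that of TAO3. The strains without SCD5 (-2.88) and RRP12 (-2.83) had lower means than TAO3 (-2.71). The other RAM members lay at 5.18 to 6.67 from TAO3. The 5 strains were picked as the smallest distances among 5303, so their lying nearer is no result. For SSD1 the nearest were NPT1, TSA2, LFT1, UBC9 and ROG3, all within 0.165. These distances rest on 4 values that share 2 pairs of pools.

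Strains without genes on the output side of the network lay on both sides of 0, and the highest are given first. The strain without CTS1, the chitinase that parts mother and daughter cells and whose mRNA Ssd1 binds, gave 1.24 on array 1 and 1.27 on array 2 with its first tag, and 1.22 and 0.94 with its second. These 4 values were close together, and the mean was 1.17 ± 0.089 (SD, n = 2). The strain without CCW12, an abundant mannoprotein of the cell wall and another Ssd1-bound mRNA, read 1.20 and 1.38 for the first tag and 0.89 and 0.88 for the second, with a mean of 1.09 ± 0.062 (SD, n = 2). Both were at least 2-fold higher on both arrays, which 0.695% of all strains were.

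A chosen list of 11 cell wall and cyclin genes whose mRNAs Ssd1 binds had a median of 0.16, against 0.04 over all strains. Of its strains 5 lay below 0 and 6 above, and on both arrays 4 lay below and 4 above. By the 2-fold rule 0 of them were lower and 2 higher, CTS1 and CCW12, against 1.82% lower and 0.695% higher of all strains. SIM1, a glucosidase-like wall protein gene of the SUN family, lay at the other end with -0.54 ± 0.072 (SD, n = 2).

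Relatives and partners of the network lay at both ends. DBF2 encodes the NDR-family kinase of the mitotic exit network, and MOB1 its partner, a relative of MOB2. The DBF2 strain averaged 1.69 ± 0.098 and was 2-fold higher on both tags of both arrays, as 0.151% of all strains were. The MOB1 strain averaged -1.87 ± 1.39 (SD, n = 2 each), from -0.89 on array 1 and -2.85 on array 2. MOB1 is essential, and its first tag read -2.14 and -4.96 on arrays 1 and 2 against 0.36 and -0.75 for the second. SEC2, an essential exchange factor for the Rab protein Sec4 and a Cbk1 substrate, averaged -1.90 ± 0.33 (SD, n = 2), also mainly through its first tag, at -3.91 and -3.02. The 8 measured genes of this list had a median of -0.07, with 1 lower and 1 higher by the 2-fold rule, which 1.82% and 0.695% of all strains met on these sides.

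Cell polarity and cell wall integrity strains lay on both sides of 0, and over all strains 2880 of 5325 lay above it. Of 20 measured polarity strains 13 were above 0, with a median of 0.12, and 1 was past the 2-fold rule, the higher strain without the kinase gene STE20 (1.33 ± 0.30). The strains without BEM2 and RGA1, both GTPase activating protein genes, followed at 0.71 ± 0.16 and 0.65 ± 0.30. Of 20 cell wall integrity strains 15 were above 0, with a median of 0.23, and 1 was lower and 1 higher by that rule, against 1.82% lower and 0.695% higher of all strains. The lower one lacked the essential kinase gene PKC1 (-2.04 ± 0.86), whose first tag read -3.86 and -5.12 and second 1.01 and -0.18. The higher one lacked FKS1, which encodes a glucan synthase subunit (1.32 ± 0.15). The strain without the transcription factor gene RLM1 averaged 1.56 ± 0.92 (SD, n = 2 each), with 4.06 for 1 tag value on array 2 and 0.35 to 1.33 for the others.

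**Figure D4:**
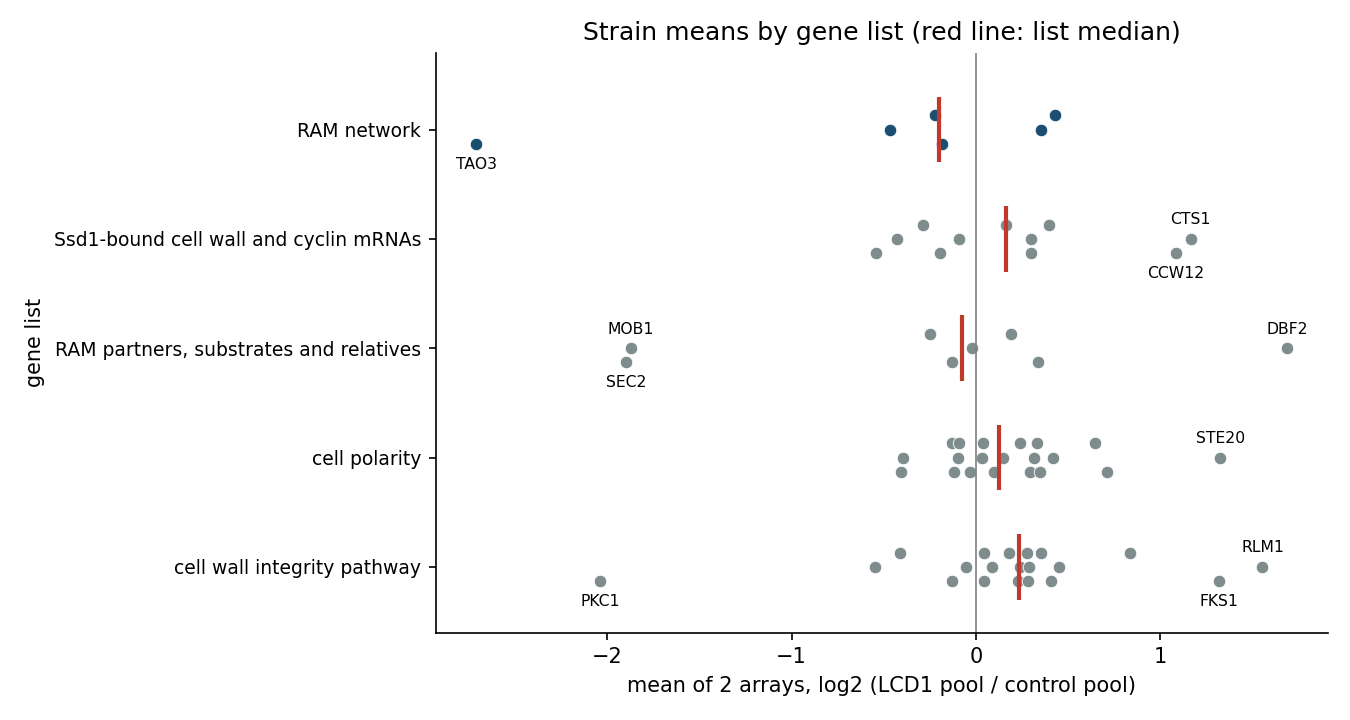
Mean log2 ratio of LCD1 pool over control pool (2 arrays) for each measured strain of the RAM network and of 4 related gene lists; red lines are list medians and strains at least 2-fold from 0 on average are named. TAO3 stands alone at the low end of its row, and list medians lie between -0.20 and 0.23.

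None of the related strains passed limma's test across all 5325 strains at an adjusted p under 0.05. That test called 0 strains lower and 0 higher in all, with a lowest adjusted p of 0.0941 by limma with Benjamini-Hochberg adjustment. At an unadjusted p under 0.05 it gave 2 lower and 3 higher among the listed Ssd1-bound mRNAs, and 2 and 1 among relatives. In the polarity list it gave 0 and 3, and in the cell wall integrity list 3 and 3. Of all strains, 10.8% were lower and 11.6% higher at that p. When limma was run on all 4 tag values per strain, it called DBF2 (adjusted p 0.0287) and CTS1 (adjusted p 0.0412) among these lists, both higher. This fit counts both tags of an array as separate values, although they come from the same pools, so its p-values are too small. The 4 related lists were chosen with earlier results of these data known. Their counts and p-values are therefore a description and no independent test.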

How the data were processed

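Per the labels' protocols, tags were amplified by PCR from genomic DNA of the 2 pools, labelled, hybridised to a Hopkins tag array and read with a GenePix scanner and GenePix 5.1. The deposited values were taken as log2 ratios between the dyes: turned back to a linear scale, 100% were whole hundredths within 0.001. How they were normalized, and which dye was the numerator, is not given in the sources used here.

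Features were named from the platform annotation, with symbols updated by gene ID from RefSeq (assembly R64), which 4 symbols did not match. Of 20036 features with a value, 18794 were named, each for 1 gene. Identifiers up to 10971 form the first tag block and the others the second, and no source says which is upstream. Signs were turned, features averaged per gene and block, each block of each array centred on its median, and both tags averaged (R 4.3.3). A strain with 1 tag value on an array was given that value. Of 5325 strains 5309 had all 4 tag values.

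Strains were tested against 0 with limma 3.58.1 (intercept, eBayes, two-sided, Benjamini-Hochberg, adjusted p under 0.05, 2.42 prior degrees of freedom) and counted by a rule of 2-fold in the same direction on both arrays. The code was tested on simulated data. The members, the 4 related lists (59 of 61 genes measured) and the essential list were chosen with earlier results of these data known. 1 further list is not reported here. Related strains are named if past the 2-fold rule or among the 3 largest of their list, and the most alike strains are the 5 nearest. Alternatives covered centring, tags, scaling, coarse ratios, spot averaging, threshold, fit and single arrays. No background correction, loess or filter on dim features was possible without intensities. P-values measure only the spread between the arrays, which may be technical.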

Additional observations from a re-analysis of the deposited data

How the results depend on the processing

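The mean of the TAO3 strain stayed below 0 in all 9 alternatives, from -3.84 with array 2 alone to -1.58 with array 1 alone. It was past the 2-fold rule in all but 1: with the second tag alone 0 members were. MOB2, SOG2 and SSD1 kept their sign in all 9 alternatives, CBK1 in 8 (0.11 with the second tag alone) and HYM1 in 7 (0.15 with array 1 alone and 0.12 with the second tag alone). Leaving out ratios under 0.05 or over 20 left the 2-fold count of members at 1.

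Over all strains the 2-fold rule gave 97 lower and 37 higher. It gave 270 and 98 with the first tag alone, 30 and 80 with the second, 231 and 206 at 1.5-fold, and 78 and 60 without centring, which shifts the median by 0.125. On a single array it gave 150 to 185 lower and 137 to 253 higher. The rule on both tags gave 20 lower and 8 higher, then 60 and 53 at 1.5-fold, 40 to 44 and 35 to 51 on a single array, and 17 higher without centring. The limma fit of 4 tag values called 14 lower and 10 higher in place of 0 and 0. A looser threshold, or 1 array in place of 2, asks less of a strain; for the other shifts the cause was not tested. Pairing of the pools is built in, because each array holds both pools as a ratio and the ratios were tested against 0. Signal over background is unknown, so what dim tags contribute could not be measured.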

Other observations

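Deleting a gene can alter its neighbours, so the strains of the nearest annotated protein-coding genes on each side of the 6 members were read too. All 12 had values, and 0 met the 2-fold rule on the lower side and 0 on the higher. Their means ran from -0.09 to 0.45. The strains on either side of TAO3 lacked ASG1, a transcription factor gene, and MET18, which encodes a factor of iron-sulfur cluster assembly. They stood at -0.09 ± 0.012 and 0.09 ± 0.079 (SD, n = 2 each), against -2.71 for TAO3 itself. These SDs leave out the spread between tags. On arrays 1 and 2 the first tag of MET18 read 0.67 and 0.25 and its second -0.62 and 0.03. For ASG1 the tags read 0.10 and 0.03, and -0.30 and -0.19. An effect of the TAO3 deletion on its neighbours was not tested, since these are separate deletion strains.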
